A study of Mus musculus with 4 samples.

Results

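Lipopolysaccharide (LPS), the outer membrane glycolipid of Gram-negative bacteria, was given to mice that lack cyclophilin D (CypD), and the liver RNA of treated and untreated CypD-/- mice was compared 24 h later. The deposited table of that comparison lists 1446 genes, of 3111 that appear in at least 1 of the 4 tables of the study, and every row of it was used. Of these genes, 448 (31.0% of those listed) were higher and 998 (69.0%) were lower in CypD-/- + LPS than in CypD-/- liver. Acute phase, chemokine and interferon genes were among the largest rises, and in lists of bile acid, amino acid and drug metabolism, fatty acid synthesis and cholesterol synthesis over 90% of the listed genes were lower. Of the 1446 genes, 769 belong to none of the gene or marker lists used here, 208 of them higher and 561 lower.

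All mice compared here were male, on the C57BL/6 background, 16 to 20 weeks old and homozygous for a deletion in *Ppif*, the gene of CypD. The treated group received 1 intraperitoneal dose of 40 mg per kg LPS and the control group the solvent, phosphate-buffered saline. The deletion is carried by every cell of the animal, so a change in liver RNA can come from hepatocytes, other liver cells or cells that entered the liver. RNA of 3 mice was pooled in equal amounts into 1 library per group, although the legends of the sequencing figures give another number of animals. With 1 pooled library a side there is no spread between animals, no error on any fold and no test of a difference between the groups.

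The table gives the authors' fold change and the false discovery rate of Kal's Z-test, which covers the counting of reads in 2 libraries only. A gene is said to have risen or fallen where the table lists it, that is, past 1.5-fold and a false discovery rate of 0.05. No value exists for a gene outside the list, which is therefore not described as unchanged. The table holds no read counts and no level per library, so the depth is unknown and the values of the single samples cannot be shown. *Ppif* itself (chromosome 14, 25693574 to 25700468 of GRCm38) is not listed here. Without LPS its mRNA was 2.72-fold lower in CypD-/- mice than in WT mice, and part of its transcript lies outside the deleted exons.

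LPS is recognized by Toll-like receptor 4 with its coreceptor Cd14 on macrophages and hepatocytes, which start NF-kB and interferon signalling. Released interleukins then act on hepatocytes through Stat3 and C/EBP factors. This shifts their secretion from albumin and carrier proteins to acute phase proteins, while bile formation, lipid synthesis and drug metabolism decline. CypD is a mitochondrial peptidyl-prolyl isomerase best known as a regulator of the permeability transition pore. WT mice treated in the same way form a comparison that shares no library with this one, and their folds are given beside it where they help.

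Rises were far wider in range than falls. Among finite folds, the median rise was 3.67, with quartiles of 2.32 and 8.65, and the median fall was 2.39, with quartiles of 1.96 and 2.95. Folds of at least 4 were listed for 286 genes (19.8% of those listed), and rises of at least 10-fold for 107, 5 of them with an infinite fold. Falls of at least 10-fold were limited to *Per3* and a transcript with an infinite fold. At the other end, 54 genes lay under 1.6-fold, and the smallest fold listed was 1.503.

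**Figure D1:**
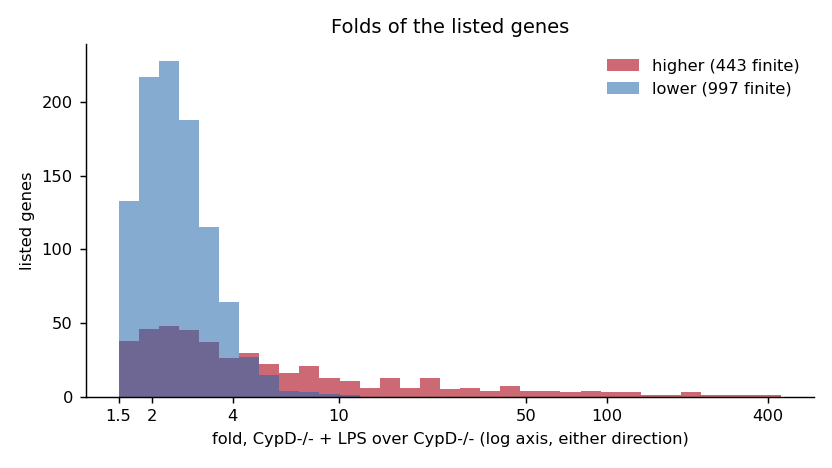
Number of listed genes (vertical axis) by the size of the fold between CypD-/- + LPS and CypD-/- liver (horizontal axis, logarithmic), for the 443 genes with a finite rise (red) and the 997 with a finite fall (blue). Falls crowd between 1.5- and 4-fold around a median of 2.39, whereas rises reach 405-fold.

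Large folds did not always come with a low false discovery rate. Of 102 finite rises of at least 10-fold, 19 had a false discovery rate above 0.001. These include *ACOD1*, the itaconate-producing enzyme of activated macrophages (82.4-fold, rate 0.0111), *Ankrd2*, an ankyrin-repeat protein known from muscle (57.5-fold, 0.0347), and *Glipr2* (116-fold, 0.0186). In Kal's test a fold of that size comes with such a rate only when few reads were counted. *Alb*, the serum albumin gene, fell only 1.61-fold and has a rate listed as 0, as 136 genes do.

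Genes of the positive acute phase list rose nearly as a group. Beside proteins that the liver secretes in inflammation, it holds genes of proteins that are not secreted, such as *Stat3*, *Sod2*, *Steap4*, *Mt1* and *Mt2*. It also holds *S100a8*, *S100a9*, *Lcn2*, *Chil3* and *Saa3*, which are counted again below as markers of neutrophils or monocytes. The count and median of the list therefore overlap with those of the markers. Of 51 genes of that list, 38 rose and 3 fell, with a median rise of 9.36-fold, against 3.67-fold for all listed rises. *Reg3g* (275-fold) and *Reg3b* (259-fold), secreted lectins that kill or bind bacteria, lie within 98 kb of each other on chromosome 6. *A2m*, a broad protease inhibitor, rose 80.4-fold, and *Il1rn*, the interleukin-1 receptor antagonist, 45.6-fold. *S100a8* and *S100a9*, which together form calprotectin, rose 52.7- and 110-fold. Smaller rises were those of the LPS-binding protein *Lbp* (7.99-fold), the pentraxin *Apcs* (7.6-fold), the heme carrier *Hpx* (5.56-fold) and complement *C3* (1.76-fold).

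Several of these genes stand in blocks of related copies that moved together. The serum amyloid genes *Saa3*, *Saa4*, *Saa1* and *Saa2* lie within 42.3 kb of chromosome 7 and all rose, *Saa4* by only 2.12-fold. The orosomucoids *Orm1*, *Orm3* and *Orm2*, carriers of drugs and steroids, lie within 21.3 kb of chromosome 4 and rose 5.74-, 8.34- and 20.3-fold. The fibrinogen chains *Fgg*, *Fga* and *Fgb*, whose products assemble into 1 clotting protein, rose 5.31-, 6.51- and 6.67-fold within 42.1 kb of chromosome 3. These 3 folds are close to each other, whereas those of the serum amyloid genes span 2.12 to 193.

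A block on chromosome 12 was split. All 5 listed *Serpina1* genes (103728156 to 103956897), which encode the antitrypsins, fell by 1.80- to 2.44-fold. All 7 listed *Serpina3* genes (104127986 to 104414334), relatives of antichymotrypsin, rose, from *Serpina3c* (5.98-fold) to *Serpina3b* (44.5-fold). *Serpina3n*, an inhibitor of leukocyte proteases, rose 22.8-fold. Beside them *Serpina6*, the corticosteroid carrier, fell 2.14-fold and *Serpina10*, an inhibitor of coagulation factors, rose 2.50-fold. Reads of such similar copies may be shared between them, so the folds of single members are uncertain.

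Hepcidin genes split as well. *Hamp*, the hormone that closes the iron exporter ferroportin, rose 2.02-fold, and its close copy *Hamp2*, with no known part in iron balance, fell 3.22-fold. Both lie on chromosome 7 within 21.7 kb, and reads that match both may have been shared. Their promoters are shown because the copies moved in opposite directions although 91.9% of 247 aligned bases upstream of the start are identical. Capitals mark TTCNNNGAA, the core bound by STAT factors, searched on both strands.
Hamp: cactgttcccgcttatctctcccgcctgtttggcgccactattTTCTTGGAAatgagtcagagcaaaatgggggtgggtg
Hamp2: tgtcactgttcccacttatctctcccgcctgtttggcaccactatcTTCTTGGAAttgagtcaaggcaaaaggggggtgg
The stretches are chr7:30944090-30944169 and chr7:30924242-30924321 of GRCm38.p6, read from the minus strand with the RefSeq promoter table. Both hold the same 9 letters, at 97 and 94 bases before the start. The motif was found within 250 bases before the start of 7.18% of all promoters in the table.

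Genes of iron and heme handling moved both ways, 10 higher and 9 lower of 39 with both hepcidins counted. Higher were *Lcn2*, which binds bacterial siderophores (101-fold), *Steap4*, a metalloreductase (22.7-fold), *Hp* (11.2-fold), *Slc11a2*, an iron importer (2.89-fold), and *Fth1*, the ferritin heavy chain (2.53-fold). Lower were ferroportin, *Slc40a1* (2.70-fold), and the heme synthesis enzymes *Fech* (2.57-fold), *Urod* (2.09-fold) and *Alad* (1.94-fold). *Hfe2* and *Tmprss6*, which set hepcidin transcription, fell 2.05- and 1.96-fold. The metal-binding metallothioneins *Mt1* and *Mt2* rose 26.3- and 31.0-fold, the zinc importer *Slc39a14* 2.38-fold, and the other 8 genes of that list are not listed.

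Negative acute phase and carrier proteins fell with 1 exception. Of 35 genes, 20 fell, by 1.5- to 2.96-fold with a median of 2.13, and 1 rose. The falls include the retinol carrier *Rbp4* (2.0-fold), the selenium carrier *Sepp1* (2.33-fold), the vitamin D carrier *Gc* (1.59-fold) and the paraoxonase *Pon1* (2.31-fold). The exception was *Igfbp1*, which binds insulin-like growth factors and rises in fasting and stress (61.7-fold). *Igfbp2* and *Igfbp4* of the same family fell 1.79- and 1.73-fold.

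In the growth hormone and IGF axis 6 of 27 genes were higher and 6 lower. *Ghr*, the growth hormone receptor, fell 3.62-fold and *Igf1*, its main target, 2.13-fold. *Socs2*, which inhibits growth hormone signalling, rose 3.66-fold, as did *Socs3*, counted in another list, by 14.5-fold. *Igfbp1*, which binds IGF, rose 61.7-fold. *Lepr*, the leptin receptor, rose 16.3-fold, *Fst*, which binds activins, 15.8-fold, and *Inhbb*, an activin subunit, 13.2-fold. All 12 of the axis are listed in the same direction in WT mice.

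Complement and clotting genes did not move as one. The members of the terminal membrane attack complex that are listed all fell, *C6* (1.93-fold), *C9* (1.92-fold), *Hc* (1.86-fold), *C8a* (1.86-fold), *C8g* (1.70-fold) and *C8b* (1.55-fold). *CFB*, the protease of the alternative pathway, rose 2.15-fold and *Vtn*, an inhibitor of the complex, 2.05-fold. Among 44 clotting genes 9 rose and 9 fell. *Plaur*, the urokinase receptor, rose 24.3-fold, and *Thbs1*, which activates TGF-beta, 14.6-fold. The falls included plasma prekallikrein, *Klkb1* (5.08-fold), *Fgl1* (3.0-fold), the carrier subunit of factor XIII, *F13b* (2.97-fold), the cofactor *F5* (2.26-fold) and antithrombin, *Serpinc1* (1.83-fold).

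Of 44 chemokines and chemokine receptors, 7 rose and 1 fell, and the other 36 are not listed. *Cxcl1*, the main neutrophil chemokine of mouse liver, rose 217-fold. *Cxcl9* (70.6-fold) and *Cxcl10* (85.3-fold), both induced by interferon-gamma and read by Cxcr3 on T cells, rose along with *Ccl5* (26.8-fold) and *Ccl2* (62.7-fold). *Ccl7*, another monocyte chemokine, has an infinite fold, as the table writes where the untreated value is 0. *Ackr1*, a chemokine-binding receptor of endothelium, rose 10.1-fold, and *Cxcl12*, which retains leukocytes in the marrow, was the exception with a fall of 2.62-fold. The neutrophil growth factor *Csf3* also has an infinite fold, with a false discovery rate of 6.94e-07.

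Among cytokines and their receptors, 11 of 58 rose and *Lifr* alone fell (3.05-fold). Both interleukin-1 receptors rose, the signalling *Il1r1* 12.2-fold and the decoy *Il1r2* 56.2-fold. The receptors of interleukins that act on hepatocytes were *Il22ra1* (8.47-fold), *Il17ra* (4.10-fold) and *Il4ra* (3.88-fold). *Il33*, an alarmin of the nucleus, rose 14.4-fold.

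In Toll-like receptor and NF-kB signalling 12 of 62 genes rose and none of the list is among the falls. Inhibitors of the pathway among the 12 were *Irak3* (31.8-fold), *Tnfaip3*, which edits ubiquitin chains (31.4-fold), *Tnip1* (6.43-fold), *Nfkbib* (3.97-fold) and *Nfkbia* (3.34-fold). The adaptor *Myd88* rose 4.01-fold and the NF-kB subunit *Rela* 2.26-fold. Promoters of a chemokine and of an inhibitor are printed since both genes rose and both carry GGGA, any base and TTTCC, a form of the NF-kB site, in capitals on either strand.
Cxcl1: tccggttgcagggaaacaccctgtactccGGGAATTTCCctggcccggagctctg
Nfkbia: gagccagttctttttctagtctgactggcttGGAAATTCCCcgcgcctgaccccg
They are chr5:90891145-90891199 on the plus strand and chr12:55492653-55492707 on the minus strand of GRCm38.p6. The sites start 71 and 29 bases before the start, the latter read on the opposite strand. The motif was found in 0.337% of all promoters, in 3 of 349 promoters of genes that rose and in 3 of 782 of genes that fell.

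Interferon-inducible GTPases, which attack the vacuoles of intracellular microbes, rose in 14 of 22 cases and none is among the falls. *Gbp5*, *Gbp3* and *Gbp2* lie together on chromosome 3 and rose 13.3-, 15.2- and 63.2-fold. *Gbp9*, *Gbp10*, *Gbp6* and *Gbp11* on chromosome 5 rose 7.24-, 9.05-, 22.6- and 4.41-fold. Among the immunity-related GTPases, *Tgtp1* rose 24.1-fold, *Ifi47* 6.09-fold, *Irgm1* 3.70-fold, *Igtp* 3.20-fold, *Irgm2* 1.93-fold and *Iigp1* 1.81-fold. *Irgm1*, which regulates the others, has a larger WT fold of 30.1, and *Gbp11* one of 31.3. The WT fold is smaller for *Tgtp1* (8.69) and *Gbp10* (4.10). These differences between the genotypes were not tested.

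Antiviral interferon-stimulated genes rose in 19 of 55 cases, with a median of 5.48-fold, and none is listed as lower. *Slfn4*, a myeloid Schlafen gene, rose 105-fold, *Rsad2*, which makes a chain-terminating nucleotide, 20.3-fold, *Slfn2* 20.2-fold, and *Isg15*, a ubiquitin-like modifier, 15.7-fold. *Zbp1*, a sensor of Z-form nucleic acid, rose 11-fold. The RNA sensors and effectors *Oas1a* (8.69-fold), *Ifit3* (4.93-fold) and *Ifit1* (4.48-fold) rose less. *Irf7*, the factor that sustains interferon production, rose 8.40-fold, whereas the antagonist *Irf2* fell 2.06-fold.

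Promoters of interferon genes are shown because the letters of the interferon-stimulated response element recur in this group. Capitals mark GAAA, any 2 bases and again GAAA, on either strand. Overlapping copies run together.
Isg15: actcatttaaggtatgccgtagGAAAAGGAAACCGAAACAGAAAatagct
Gbp2: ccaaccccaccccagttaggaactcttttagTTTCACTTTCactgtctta
Ifit1: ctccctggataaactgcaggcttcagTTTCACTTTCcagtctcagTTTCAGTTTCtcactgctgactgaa
Irgm1: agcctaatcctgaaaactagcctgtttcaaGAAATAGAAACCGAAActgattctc
In GRCm38.p6 these are chr4:156200869-156200918 (minus strand), chr3:142620573-142620622 (plus), chr19:34640759-34640828 (plus) and chr11:48871426-48871480 (minus). The motif was found within 250 bases before the start of 16 of 26 listed interferon genes that have a promoter in the table (61.5%). It was found in 8 of the 9 GTPases among them and in 8 of the 17 antiviral genes. The share was 3.04% of all 27025 promoters, 7.74% of the genes that rose and 2.43% of those that fell. A match describes the letters and not a bound site.

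Antigen presentation by class I molecules followed, with 9 of 38 genes higher and 2 lower. *Tap1*, the peptide transporter, rose 7.24-fold, the immunoproteasome subunits *Psmb8* and *Psmb10* 4.27- and 3.64-fold, and the heavy chains *H2-D1* and *H2-K1* 4.06- and 2.64-fold. The exceptions were *H2-Q10*, a class I molecule secreted by the liver (1.79-fold lower), and the chaperone *Canx* (1.61-fold lower). Of 36 constitutive proteasome genes 5 rose, by at most 1.91-fold.

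Stress and immediate early genes rose in 15 of 56 cases and 1 fell. *Ier3*, *Cdkn1a*, the cell cycle inhibitor p21 (70.7-fold), and *Gadd45g* (33.6-fold) had the largest rises. The AP-1 subunits *Junb*, *Jun* and *Jund* rose 9.02-, 4.93- and 4.26-fold. Of the unfolded protein and integrated stress responses, 9 of 46 genes rose, with *Ddit4*, an mTOR inhibitor (23.6-fold), *Chac1*, which degrades glutathione (11-fold), *Ddit3* (4.01-fold) and *Atf4* (2.92-fold). *Derl2* (2.89-fold) and *Canx* fell. Of 33 heat shock proteins and chaperones 7 fell and 2 rose, a share of falls (77.8%) near that of the whole table. Lower were the mitochondrial chaperones *Hspe1* (1.77-fold), *Hspd1* (1.70-fold) and *Hspa9* (1.69-fold), and *Hsp90aa1* and *Hspb8* rose 2.03- and 1.75-fold.

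Genes of cell death were mixed, with 8 of 47 higher and 3 lower. *Casp4*, the caspase known in mouse as caspase-11 that binds LPS in the cytosol, rose 34.5-fold with a false discovery rate of 0.00687, and its substrate *Gsdmd* rose 2.52-fold. *Fas* and *Bax*, which promote apoptosis, rose 3.0- and 2.85-fold, and *Bcl2l1* and *Birc3*, which restrain it, 2.28- and 2.89-fold. *Phlda1* (5.41-fold), *Cideb* (3.04-fold) and the inhibitor *Xiap* (2.84-fold) fell. At a false discovery rate under 0.001 this list held 2 rises and 3 falls.

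**Figure D2:**
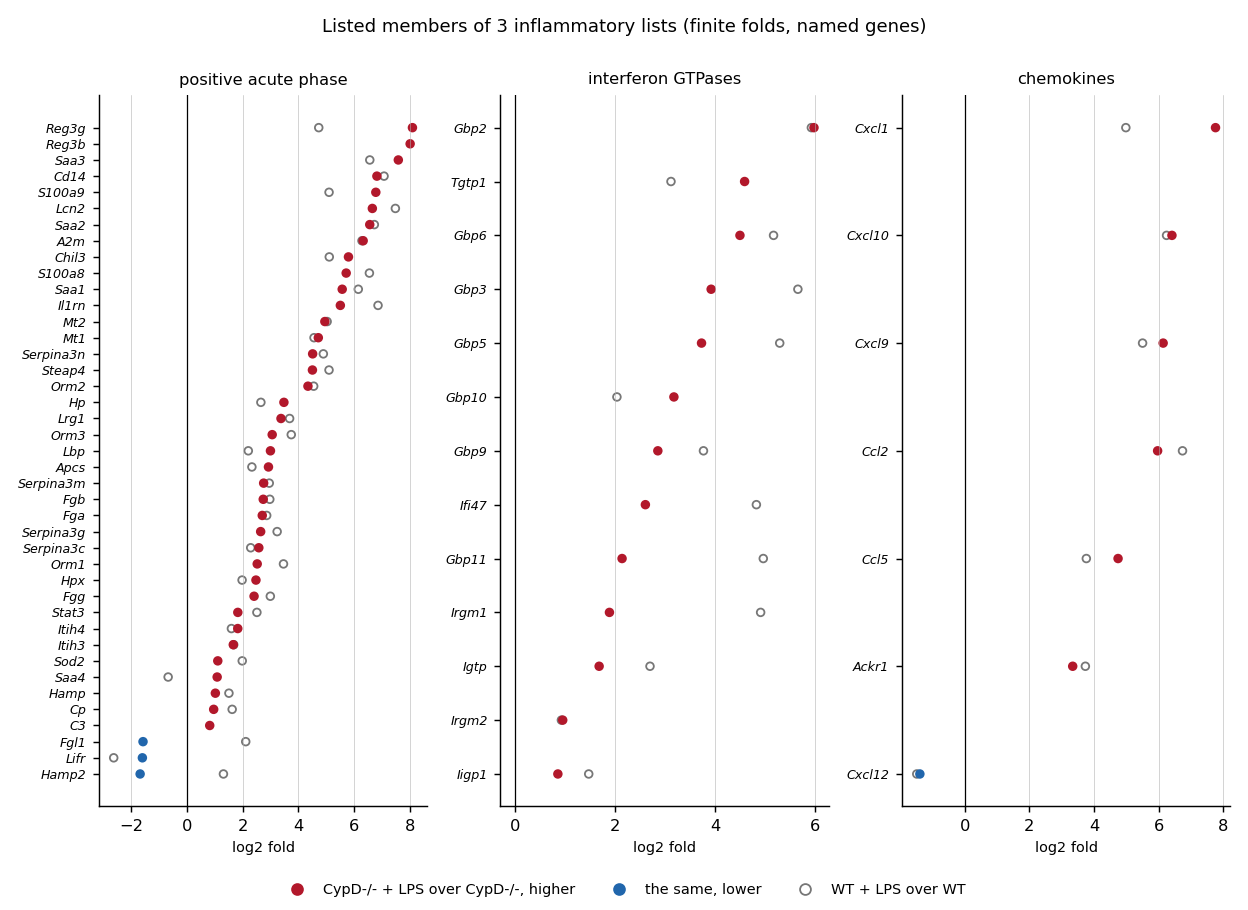
Log2 fold (horizontal axis) of each named member with a finite fold in the lists of positive acute phase proteins, interferon-inducible GTPases and chemokines with their receptors. Filled points are CypD-/- + LPS over CypD-/- (red higher, blue lower) and open circles WT + LPS over WT where listed. *Hamp2*, *Fgl1* and *Saa4* lie on opposite sides of 0 in the 2 genotypes.

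Some markers of blood-borne myeloid cells rose, and those of lymphocytes are not listed. Of 16 neutrophil markers 5 rose, *Ngp* with an infinite fold, *S100a9*, *Lcn2*, *Il1r2* and *S100a8*, but the defining *Ly6g*, *Mpo*, *Elane* and *Cxcr2* are not listed. *Lcn2* is also made by hepatocytes. *Lcn2*, *S100a8* and *S100a9* were already counted in the positive acute phase list. Of 15 monocyte markers 5 rose, including *Chil3* (55.8-fold), *Ly6c2* (16.6-fold, false discovery rate 0.0281) and the integrin *Itgam* (15.9-fold, 0.0185). *Chil3* and *Saa3*, another of the 5, are in the acute phase list too. None of 16 markers of T and NK cells and none of 11 of B and plasma cells is listed. Of 15 Kupffer cell markers, *Mrc1* (3.25-fold), *Slc40a1* (2.70-fold) and the defining *Clec4f* (2.50-fold) fell and the scavenger receptor *Marco* rose 4.84-fold. Of 22 endothelial markers 2 rose and 3 fell: *Icam1* rose 19.4-fold and *Lyve1* 7.83-fold, and *Clec4g* (3.59-fold), *Mrc1* and *Ptprb* (2.70-fold) fell. None of 13 markers of pancreas and gut, where *Reg3* genes are also expressed, is listed, so their level in either library is unknown. The tissue or cell source of the *Reg3* rises was not tested. In liver pieces, fewer cells of a type and less RNA per cell cannot be told apart, and the part of these cells in the other results was not tested.

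Of 12 hepatocyte markers 6 were lower, 1 was higher and 5 are not listed, with *Cps1* (2.51-fold) and *Cyp2e1* (2.37-fold) ahead of *Alb* and *Apob* (1.57-fold), and *Fgb* higher as an acute phase gene. The metabolic genes described next are mostly expressed by hepatocytes, and the part of these markers' fall in theirs was not tested.

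Bile acid handling had the highest share of lower genes of the 51 lists. Of 44 genes, 31 fell (70.5%), with a median of 2.82-fold, against 2.39-fold for all listed falls, and 1 rose. On the blood side, the uptake carriers *Slc10a1* (4.30-fold), *Slco1b2* (4.32-fold), *Slco1a4* (5.31-fold) and *Slco1a1* (3.72-fold) fell. On the bile side, the bile salt pump *Abcb11* fell 3.36-fold, the conjugate pump *Abcc2* 3.10-fold, the phospholipid flippase *Abcb4* 3.06-fold, and the sterol exporters *Abcg8* and *Abcg5* 3.35- and 2.99-fold. Between them lie the enzymes: *Cyp7a1*, the rate-limiting step of synthesis (4.78-fold), *Cyp8b1* (2.41-fold), *Cyp27a1* (1.78-fold) and *Cyp7b1* (1.75-fold). The receptor *Nr1h4* (2.15-fold) and its target *Nr0b2* (3.46-fold), which represses *Cyp7a1*, were lower as well. The exception is the largest rise of the table, *Slc10a6*, a carrier of sulfated steroids (405-fold), in the same gene family as *Slc10a1*.

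Drug and steroid metabolism fell across families. Of 73 cytochrome P450 genes 30 fell, with a median of 2.32-fold, and 3 rose. A block of 9 *Cyp2c* genes within 827 kb of chromosome 19 fell without an exception among the listed copies, from *Cyp2c29* (1.85-fold) to *Cyp2c39* (9.08-fold). *Cyp26a1*, which degrades retinoic acid, fell 3.90-fold, *Cyp2a5* 3.23-fold, *Cyp3a11* 1.88-fold and *Cyp1a2* 1.87-fold. The 3 rises were *Cyp2b10*, a target of the receptor Nr1i3 (4.58-fold), and the fatty acid hydroxylases *Cyp4a14* and *Cyp4a10* (1.61- and 1.55-fold), next to *Cyp4a12a*, which fell 1.64-fold. *Nr1i3* itself fell 3.51-fold, and *Cyp2b10* is 6.0-fold higher in CypD-/- + LPS than in WT + LPS mice, a comparison that shares the CypD-/- + LPS library.

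Phase II and oxidoreductase genes were mostly lower where listed. All 11 listed *Ugt* genes, 10 *Ces* carboxylesterases, 9 *Akr* reductases, 8 *Aldh* dehydrogenases and 8 *Hsd* steroid dehydrogenases fell. *Akr1c14* (5.78-fold), *Hsd3b2* (8.63-fold) and *Hsd3b5* (6.13-fold) fell the most of these. Against them rose *Sult1e1*, the estrogen sulfotransferase (41.5-fold), *Adh7*, an alcohol dehydrogenase of the gut (7.47-fold), and *Xdh*, which makes uric acid and superoxide (3.04-fold). *Uox*, which removes uric acid, fell 3.09-fold.

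Lipid synthesis fell in all its branches. Of 38 genes of fatty acid and triglyceride synthesis 26 fell and no other is listed. The route begins with *Acly* (1.66-fold lower) and *Acaca*, acetyl-CoA carboxylase (3.93-fold), and goes on through *Fasn* (2.49-fold), the elongases *Elovl6* (6.4-fold) and *Elovl2* (3.18-fold) and the desaturases *Scd1* (3.70-fold), *Fads2* (2.83-fold) and *Fads1* (2.63-fold). Of its regulators, *Srebf1* fell 3.14-fold and *Mlxipl* 2.19-fold. *Fasn*, *Elovl5*, *Mlxipl*, *Lpin1*, *Acsl4* and *TKFC* are not listed in WT mice. Whether they differ from WT was not tested.

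Cholesterol synthesis fell in 18 of 31 genes and 1 rose. *Idi1* fell 4.15-fold, *Sc5d* 3.08-fold and *Sqle* 1.87-fold. *Insig1*, an anchor that holds sterol-sensing factors back, fell 2.17-fold, and its relative *Insig2* was the exception, with a rise of 1.76-fold.

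Fatty acid oxidation went down with synthesis, 20 of 50 genes without a listed rise, with a median of 2.24-fold. Peroxisomal steps included *Abcd3* (3.39-fold), *Acaa1b* (2.74-fold) and *Hsd17b4* (2.39-fold). Mitochondrial steps included the trifunctional protein *Hadha* (2.43-fold) and *Hadhb* (2.20-fold), and *Acadm* (1.63-fold). *Ppara*, the receptor that drives these genes in fasting, fell 3.04-fold. Other fasting genes rose, among them *Pdk4*, which closes pyruvate dehydrogenase (18.9-fold), *Angptl4*, an inhibitor of lipoprotein lipase (9.33-fold), and the lipid droplet proteins *Cidec* (8.23-fold) and *Plin2* (2.62-fold). The lipase *Pnpla2* rose 2.74-fold and *Mgll*, which completes lipolysis, fell 3.46-fold.

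Lipoprotein genes on chromosome 9 moved apart within 38.9 kb: *Apoc3* fell 1.5-fold, and *Apoa4* and *Apoa5* rose 1.90- and 1.62-fold. *Mttp*, which loads lipid on apolipoprotein B, fell 2.60-fold, and *Angptl8*, a regulator of lipoprotein lipase, 3.35-fold. *Abca1*, the cholesterol exporter to high density lipoprotein, rose 2.22-fold.

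Of 54 glucose genes 20 were lower and 9 higher, and the share lower among the listed (69.0%) equals that of the whole table. Lower were the glucose carrier *Slc2a2* (4.77-fold), pyruvate kinase *Pklr* (3.46-fold), glycogen synthase *Gys2* (3.26-fold) and phosphorylase *Pygl* (3.04-fold). Higher were the second pyruvate kinase gene *Pkm* (5.82-fold), *Pfkfb3*, which stimulates glycolysis (4.40-fold), and lactate dehydrogenase *Ldha* (2.79-fold). The kinases of pyruvate dehydrogenase split, with *Pdk1* and *Pdk2* lower (3.80- and 3.19-fold) and *Pdk4* higher. *G6pc* and *Fbp1*, the last enzymes of gluconeogenesis, rose 1.63- and 1.72-fold.

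**Figure D3:**
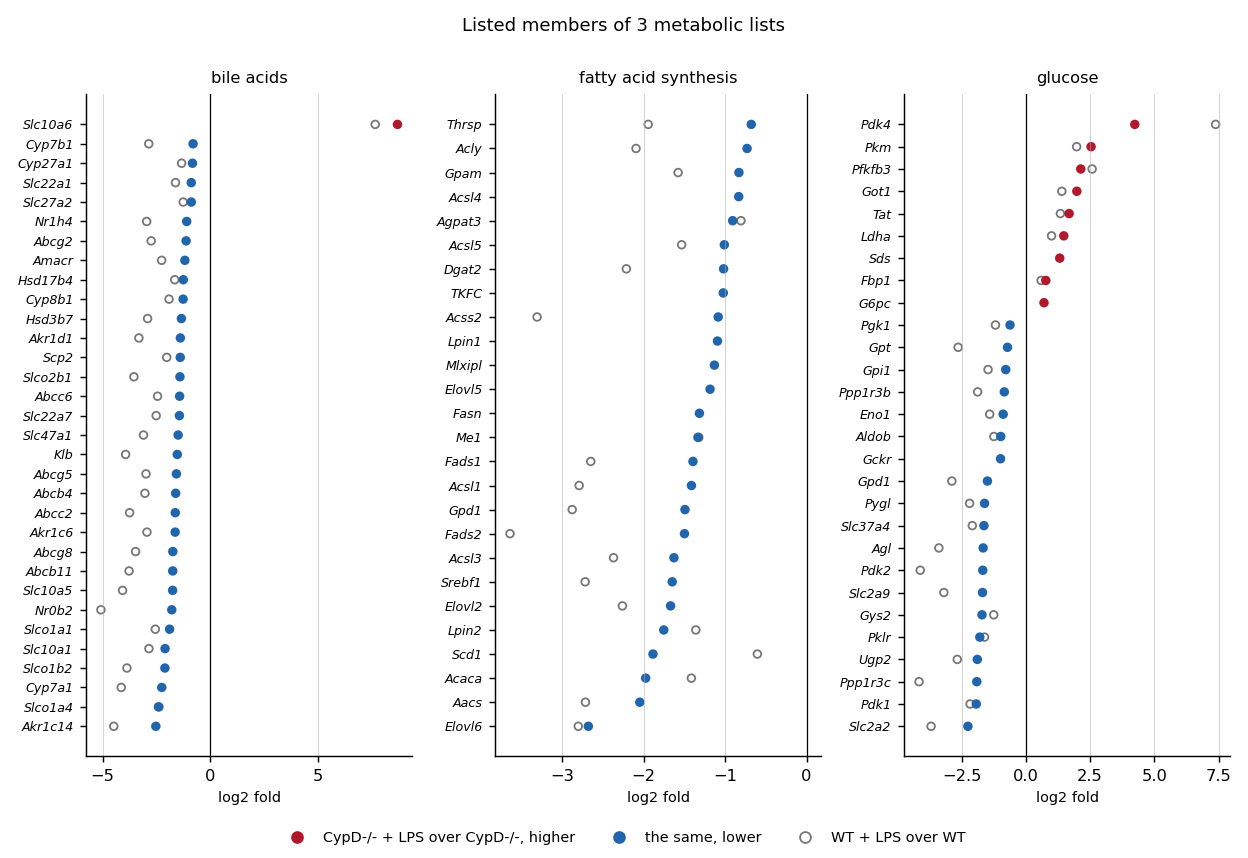
Log2 fold (horizontal axis) of listed members of the lists on bile acids, fatty acid and triglyceride synthesis, and glucose. Filled points are CypD-/- + LPS over CypD-/- (red higher, blue lower) and open circles WT + LPS over WT where listed. *Slc10a6* alone lies right of 0 in the bile acid panel, no gene does in the fatty acid panel, and 9 do in the glucose panel.

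Amino acid catabolism contributed more falls than any other list, 48 of 79 genes, with a median of 2.19-fold. *Dpys* and *Amdhd1*, of pyrimidine and histidine breakdown, fell 3.76- and 3.66-fold, and *Gls2*, the liver glutaminase, 3.13-fold. In the urea cycle *Otc* fell 2.54-fold and *Cps1* 2.51-fold. The 5 rises were the serine dehydratases *Sdsl* (12.1-fold) and *Sds* (2.50-fold), the transaminases *Got1* (3.96-fold) and *Tat* (3.22-fold), and the amino acid importer *Slc38a2* (2.65-fold). *Tat* and *Sds* are known targets of glucocorticoids. In the kynurenine route from tryptophan to NAD, *Ido2* (3.68-fold), *Aadat* (3.33-fold), *Kynu* (3.18-fold) and *Haao* (2.0-fold) fell, whereas *Nampt*, which salvages nicotinamide, rose 4.70-fold and *Nnmt*, which methylates it, 4.24-fold.

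All listed genes of oxidative phosphorylation and the tricarboxylic acid cycle fell. Of 28 genes of the tricarboxylic acid cycle 13 fell, by 1.70- to 2.73-fold, among them both E1 subunits of pyruvate dehydrogenase, *Pdha1* (2.42-fold) and *Pdhb* (2.43-fold). Of 82 nuclear-encoded genes of oxidative phosphorylation 19 fell, with a median of 1.83-fold, below the 2.39-fold of all listed falls. *Atp5k*, an accessory subunit of ATP synthase, fell 4.03-fold, *Ndufb10* of complex I 2.41-fold and cytochrome c, *Cycs*, 1.83-fold. In WT mice 62 of the 82 are listed as lower, and 16 of the 19 are among them. The difference between 19 and 62 was not tested, and the depth of each library is unknown. None of 28 mitochondrially encoded genes is listed, and none is listed after LPS in WT mice either. The paper reports such genes as lower in WT mice after LPS, so their absence here says nothing of them in CypD-/- mice. In the list of 88 genes of the mitochondrial ribosome and its expression 2 fell, against 25 falls in WT mice. They were *Mrps36*, ribosomal by its symbol only (5.13-fold, false discovery rate 0.0216), and *Lrpprc*, which stabilizes mitochondrial mRNA (2.45-fold).

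In the list of mitochondrial carriers and pore candidates, 9 of 48 genes fell and 3 rose. The share of falls among its listed genes is near that of the whole table. *Vdac1*, the main pore of the outer membrane, fell 1.96-fold, the pyruvate carrier subunits *Mpc1* and *Mpc2* 2.19- and 1.81-fold, and the ATP-magnesium carrier *Slc25a23* 2.40-fold. *Slc25a51*, which imports NAD, rose 2.95-fold, *Slc25a47*, an orphan carrier of liver, 2.15-fold, and *Tspo* 1.6-fold.

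Antioxidant genes moved both ways, with 14 of 52 lower and 6 higher. The share lower among the listed (70.0%) is near that of the whole table (69.0%). *Cat*, catalase, fell 4.08-fold, and 8 glutathione transferases fell too, from *Gsta3* (2.77-fold) to *Gsto1* (1.55-fold). *Gclc* and *Gclm*, the enzyme that limits glutathione synthesis, fell 2.45- and 2.23-fold, and the peroxiredoxins *Prdx2* and *Prdx6* 2.33- and 1.94-fold. *Txnip*, an inhibitor of thioredoxin (5.65-fold), *Hmox1* (3.88-fold), mitochondrial *Sod2* (2.15-fold), *Gpx1* (1.84-fold), *Gsr* (1.80-fold) and *Txn1* (1.72-fold) rose. *Nos2*, the inducible nitric oxide synthase, rose 33.8-fold with a false discovery rate of 0.0103. Its cofactor tetrahydrobiopterin is made by *Gch1* and *Pts* and recycled by *Pcbd1* and *Qdpr*, which fell 2.10-, 3.56-, 2.17- and 1.92-fold.

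Of 29 genes of the clock and its outputs 4 rose and 5 fell. *Arntl*, the activator Bmal1, rose 15.4-fold with a false discovery rate of 0.0407, and *Nfil3*, a repressor at D-box sites, 10.5-fold. *Per3* fell 11.3-fold, and the D-box activators *Dbp*, *Hlf* and *Tef* fell 5.22-, 3.01- and 2.95-fold, as did *Usp2* (3.44-fold). *Per1*, which also responds to glucocorticoids, rose 3.25-fold. All 9 listed clock genes moved in the same direction in WT mice. The promoter of *Per3*, the largest finite fall, is printed since it holds the D-box TTATGTAA on either strand, in capitals.
Per3: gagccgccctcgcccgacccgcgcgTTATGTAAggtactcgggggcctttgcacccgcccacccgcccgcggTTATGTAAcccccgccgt
It is chr4:151044806-151044895 of GRCm38.p6, on the minus strand, with copies starting 205 and 158 bases before the start. The D-box was found in 0.862% of all promoters, in 12 of 782 promoters of genes that fell and in 1 of 349 of those that rose.

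Of 40 transcription factors of the hepatocyte 9 were lower and 2 higher, *Cebpb*, the inflammatory C/EBP factor (2.34-fold), and *Id2* (1.51-fold). Only 4 of the 9 falls had a false discovery rate under 0.001. *Onecut2* fell 3.14-fold, *Hhex* 2.48-fold and *Prox1* 2.20-fold. Of 43 nuclear receptors 6 are listed and all 6 fell, in a table in which 69.0% of genes are lower. Those not named above were *Thrb*, the thyroid hormone receptor (3.17-fold), and *Nr1h3*, the oxysterol receptor (2.0-fold). Only 3 of the 6 had a false discovery rate under 0.001. Major urinary proteins, pheromone carriers of male liver on chromosome 4, fell in 12 cases by 1.51- to 4.48-fold, and *Mup4* rose 1.97-fold. These genes are nearly identical, so single members are uncertain. None of 7 Y-linked genes is listed here.

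Of 78 cytosolic ribosomal proteins 11 were higher and 3 lower, in a table in which 69.0% of genes are lower. The median rise was 1.88-fold, and *Rps29* rose 6.23-fold. *Rps18*, *Rpl10a* and *Rps24* fell 2.63-, 2.59- and 1.52-fold. Processed copies of these genes elsewhere in the genome can take reads, so the folds of single members are uncertain. In WT mice 5 are higher and 18 lower, and only 2 of the 14 moved in the same direction there. *Rps29* was 5.80-fold lower in CypD-/- than in WT mice without LPS, a comparison that shares the CypD-/- library with this one.

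Among transporters of the plasma membrane 24 of 69 fell and 7 rose, a share of falls among the listed (77.4%) near the 69.0% of the whole table. After *Slc10a6*, the largest rise was that of the citrate importer *Slc13a5* (19.8-fold). Falls included the monocarboxylate carrier *Slc16a12* (4.32-fold), the glycerol channel *Aqp9* (3.72-fold), the glutamate carrier *Slc1a2* (3.49-fold) and the copper importer *Slc31a1* (1.89-fold). Of 46 matrix genes and proteases 3 rose and 3 fell. *Timp1*, an inhibitor of matrix proteases, rose 29.8-fold, *Thbs1* 14.6-fold and *Col4a1* 5.93-fold, and *Mmp19* (1.87-fold), *Col18a1* (1.86-fold) and *Itgb1* (1.62-fold) fell.

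Some of the strongest changes belong to none of these groups. *Slpi*, a protease inhibitor of mucosa (217-fold), *Duoxa2*, the maturation factor of a hydrogen peroxide-producing oxidase (176-fold), and *Crybb3*, a lens crystallin (114-fold), rose. *Fgf23*, the phosphate-lowering hormone of bone, and *Lyzl4* have infinite folds. Among falls were *Mme*, neprilysin (7.18-fold), *Clec2h* (6.74-fold), *Abca8a* (6.31-fold), the oxidase *Nox4* (5.79-fold), *Notum*, which inactivates Wnt ligands (5.63-fold), the succinate receptor *Sucnr1* (5.62-fold) and the uridine phosphorylase *Upp2* (5.62-fold). *Nrep*, *Adi1*, *Rnf5* and *Fitm1* fell 7.25-, 5.40-, 5.65- and 5.22-fold.

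**Figure D4:**
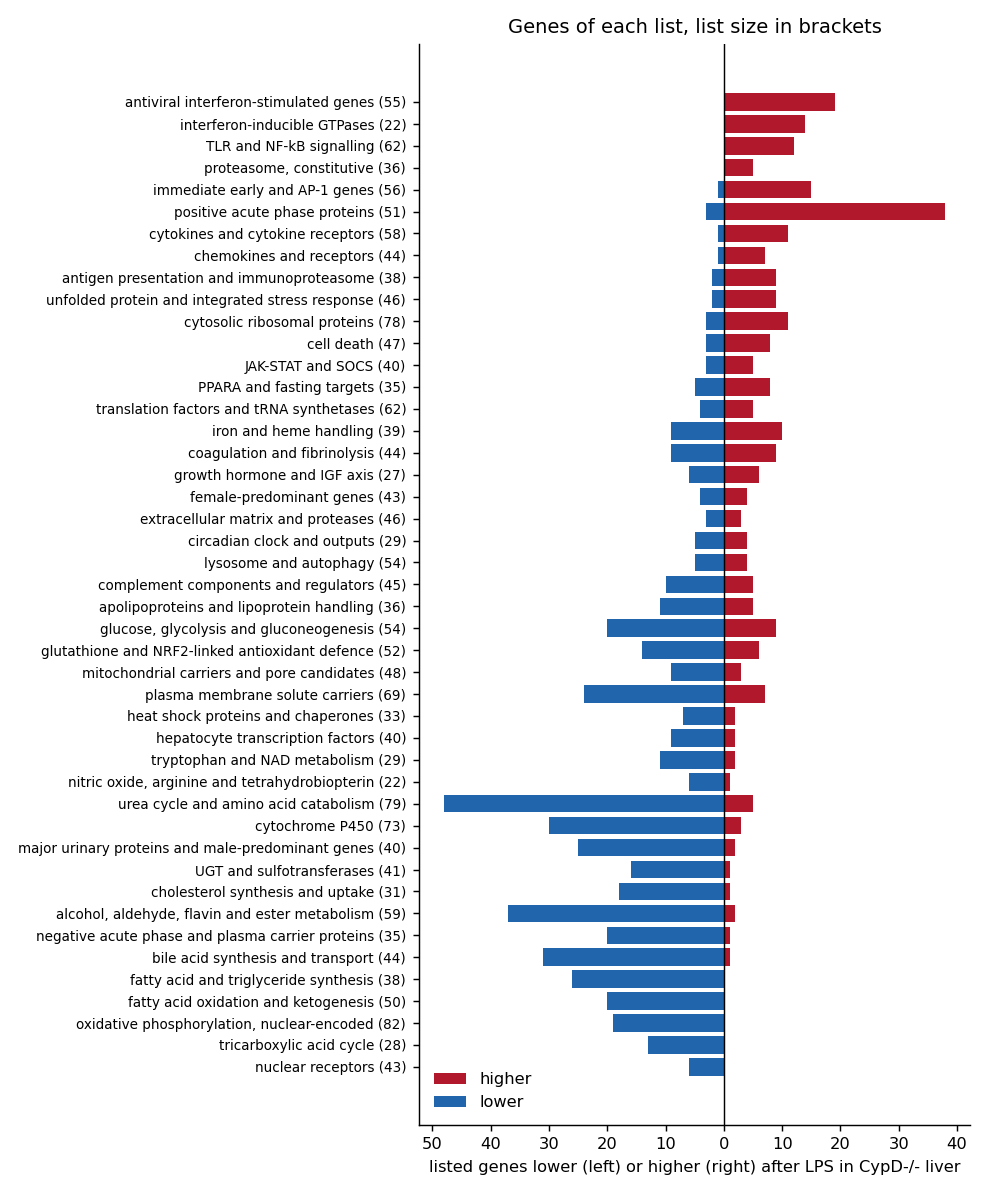
Number of genes higher (right, red) and lower (left, blue) after LPS in CypD-/- liver for each of the 45 lists with at least 5 listed genes, ordered by the share that is lower, with the size of each list in brackets. In 13 lists at least 90% of the listed genes are lower, and in 7 at most 10% are.

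Of the 1446 genes, 1247 (86.2%) are listed in the same direction after LPS in WT mice, 12 in the opposite direction, and 187 are not listed there under the same symbol. Rises were shared in 362 of 448 cases (80.8%) and falls in 885 of 998 (88.7%). For genes not listed in WT mice the median rise was 2.21, against 4.39 for those listed there, and the median fall 2.11 against 2.43. Of the unshared genes 33 rises and 47 falls lay under 2-fold, near the threshold. The overlap covers 43.8% of the 2844 genes of the WT table.

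Among the largest rises not listed in WT mice under the same symbol were *Reg3b*, *Duoxa2*, *Serpina3b* and *Fam83a* (21.0-fold), the monocyte markers *Ly6c2* (16.6-fold) and *Itgam* (15.9-fold), then *S100a6* (7.41-fold), the ferritin receptor *Scara5* (6.03-fold) and *Marco*. *ACOD1* is among them by symbol only, since the WT table holds it under an older name with 9.61-fold. *Reg3b* and *Duoxa2* are also 12.8- and 7.34-fold higher in CypD-/- + LPS than in WT + LPS mice, and *Lyzl4* 137-fold, in a comparison that shares the CypD-/- + LPS library. The largest falls without a WT value were *Cyp2c39*, *Raet1d*, a ligand of natural killer cells (7.83-fold), *Smim8* (4.46-fold), *Hectd2* (4.12-fold), *Ccnh* (4.05-fold) and *Hmgn5* (4.03-fold). *Chordc1*, *Colec10*, *Col4a3bp* and *Cdc14b* fell 3.75-, 3.67-, 3.36- and 3.14-fold. Absence from the WT table does not show that the genotypes differ, which was not tested.

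**Figure D5:**
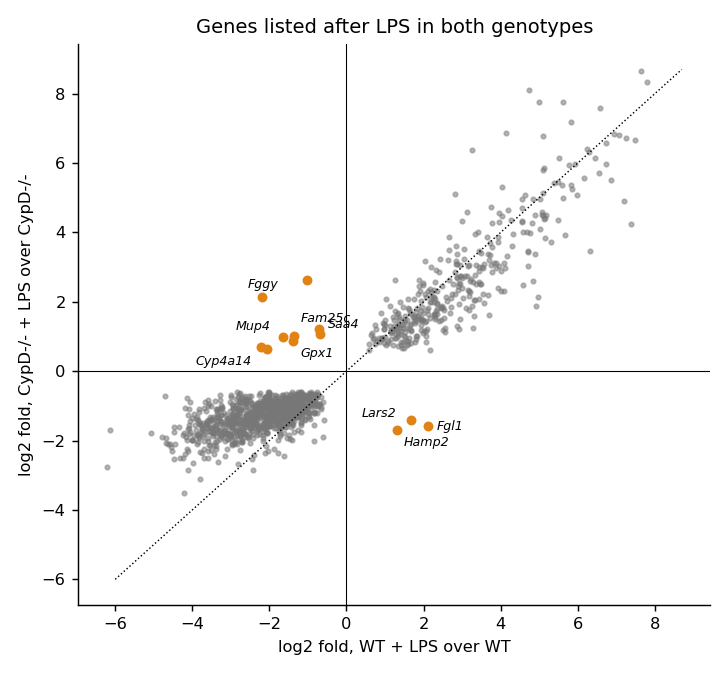
Log2 fold after LPS in CypD-/- (vertical axis) against WT liver (horizontal axis) for the 1256 genes with a finite fold in both tables, matched through synonyms; the dotted line marks equal folds. The 12 genes listed in opposite directions are orange, 9 of them higher in CypD-/- and lower in WT liver.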

How the data were processed

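Pooled liver RNA, depleted of ribosomal RNA, was sequenced by the authors on the SOLiD system and aligned by strand to GRCm38 with CLC Genomics Workbench. The normalization between libraries is not given in the sources used here. The deposited score is the authors' signed fold change between 2 libraries, with a minus sign for genes that fell, and the deposited q-value is the false discovery rate the authors computed by Kal's Z-test. Only genes past 1.5-fold and a q-value of 0.05 are in the tables, so these thresholds decide what is listed. The column of folds is the authors' own comparison, and no counts were given from which it could be computed again. Folds without a finite value were left out of medians. Counting covered 51 gene lists and 12 marker lists, with synonyms resolved through RefSeq (GRCm38.p6, 1437 of 1446 symbols matched). For promoters, 1132 symbols had an entry. Genes shared between tables were counted by symbol without regard to letter case. No test was made, as each group is 1 library.

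The members and lists were chosen with earlier results of these data known. The genes named are the 25 largest finite rises and falls, infinite folds, list members including exceptions, the 10 largest rises and falls not listed in WT, genes opposite in WT, and *Ppif*. Predicted gene models are counted, not named, and some genes that meet these rules are not reported here. Any further gene was picked with its value in view. Alternatives were 2-fold, a q-value under 0.001, leaving out predicted models, keeping letter case and, chosen after seeing the data, matching synonyms. The counting was checked on simulated data. Python 3.11.15, pandas and matplotlib were used.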

Additional observations from a re-analysis of the deposited data

Results flagged for a closer look

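12 genes are listed after LPS in opposite directions in the 2 genotypes, with 1 pooled library per group, and the difference was not tested. Values are given for 11 of them. Within CypD-/- mice the deposited fold was 4.41 for *Fggy*, a carbohydrate kinase (-4.57 in WT), 2.12 for *Saa4* (-1.60), 2.0 for *Fam25c* (-2.58) and 1.97 for *Mup4* (-3.13). It was 1.84 for *Gpx1* (-2.60), 1.61 for *Cyp4a14* (-4.67), 1.55 for *Cyp4a10* (-4.14) and 6.20 for 1 predicted gene model. *Hamp2* (-3.22, 2.47 in WT), *Fgl1*, a hepatocyte-secreted fibrinogen-like protein (-3.0, 4.31 in WT), and *Lars2*, the mitochondrial leucyl-tRNA synthetase (-2.67, 3.18 in WT), went the other way. Of the 12, 7 also differ between the untreated groups, 6 of them lower in CypD-/- mice, such as *Cyp4a14* (6.65-fold) and *Gpx1* (2.09-fold). That comparison shares a library with each side. *Hamp2*, *Saa4*, *Mup4*, *Cyp4a10* and *Cyp4a14* have close copies, so their reads may be shared with other genes.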

How the results depend on the processing

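The counts of 448 rises and 998 falls became 374 and 723 at 2-fold, and 305 and 637 at a q-value under 0.001. At 2-fold the median rise was 4.69 and the median fall 2.65. At a q-value under 0.001 the median rise was 4.41, and the share listed in the same direction in WT was 88.2%. All other alternatives left these values within 1.5 times for counts, or within the 95% interval over genes for medians and shares. Matching synonyms, chosen after seeing the data, gave 86.4%. Of 102 counts by list and direction, 76 stayed within 1.5 times at 2-fold and 79 at a q-value under 0.001. The larger direction turned in cell death only, from 8 rises and 3 falls to 2 and 3, at the stricter q-value. Unknown depth limits every statement on genes that are not listed, and no fold has an error over animals. No library could be left out, since each group has 1. No paired analysis was possible because the result comes from no test and the labels carry no replicate numbers.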
